A study of Mus musculus with 6 samples.

Results

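The 100 circRNA probes with the strongest signal in C2C12 cells, taken over the myoblast and myotube states together, were followed one by one on 6 one-colour microarrays. They were chosen from the 14236 circRNA probes of the Arraystar mouse circRNA array by brightness alone. On each array the log2 signal was set against the 75th percentile of all circRNA probes. The means of 3 myoblast and 3 myotube arrays were then averaged, and the highest 100 were kept. The C2C12 line descends from mouse muscle satellite cells. Myoblasts were dividing cells in high-glucose DMEM with 10% fetal bovine serum, and myotubes were the same line after a switch at high confluence to DMEM with 2% horse serum; the myoblast medium also held penicillin and streptomycin. The sources used here do not give the length of differentiation. The study describes its replicates as independent experiments in 1 line. Of 14 marker genes of myoblasts, myotubes and other cells that were looked up, 0 were among the named gene probes of the array, so the states were not checked by markers.

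A circRNA forms when the spliceosome joins the end of an exon back to the start of the same or an earlier exon, which leaves a ring without free ends. Rings resist exonucleases and can outlast the linear transcript of their gene, so they tend to build up in cells that no longer divide, such as muscle fibres. Probes of circRNA arrays are laid across the back-splice junction, the only stretch that sets the ring apart from its linear counterpart. The brightness of a probe reflects the amount of its target and also how well that probe binds, so an order of probes by signal is not an order of circRNAs by abundance. Host genes and probe sequences were not used here, and the probes are given by their identifiers.

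All 100 probes were well above background on all 6 arrays, and none was saturated. Processed signals, which are the scanner readings after background subtraction and detrending, ran from 1090 to 168000 over the 6 arrays. The 75th percentile of all circRNA probes averaged 33.2 ± 3.12 on myoblast arrays and 48.6 ± 9.60 on myotube arrays (SD, n = 3 each), with myotube 1 at 37.6. The dimmest of the 100 therefore lay far above most of the array. At the edge of the set the probes differed little. Ranks 98, 99 and 100 were held by ASCRP4005868, ASCRP4007372 and ASCRP4011499, with mean levels of 5.63, 5.60 and 5.59 log2 units above the percentile. ASCRP4013297, ASCRP4012797 and ASCRP4011607 stood just outside, at 5.55, 5.54 and 5.54.

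These 100 probes carried most of the circRNA signal in both states, and a smaller share of it in myotubes. In myoblasts 1 to 3 their share was 69.6%, 71.5% and 72.4%, and in myotubes 1 to 3 it was 66.4%, 61.2% and 62.3%. Every myotube array lay below every myoblast array. The means were 71.2% ± 1.46 and 63.3% ± 2.76 (SD, n = 3 each), a difference of -7.88 percentage points, which no scaling between arrays enters (2-sided exact permutation p = 0.1, the smallest that 3 arrays against 3 allow). That these probes hold a large share follows from how they were chosen, but the difference between states does not. A barcode field in the array headers holds codes from 1_1 to 2_2, and their first number was read here as slide row. On that reading myotube 1 shared row 1 with the myoblast arrays and stood at 66.4%, below their lowest of 69.6%. Row 2 held only myotubes 2 and 3, so it gives no comparison of its own.

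The summed signal of the 100 probes itself moved little, while that of the other circRNA probes was higher on average in myotubes. The 100 probes summed to 1600970 ± 151204 units of processed signal on a myoblast array and 1552961 ± 136589 on a myotube array (mean ± SD, n = 3 each; exact permutation p = 0.7). The other circRNA probes summed to 647772 ± 49237 and 909182 ± 170052 (exact permutation p = 0.1), with every myotube array above every myoblast array. The gap was narrow for myotube 1, at 713365 beside 701744 on myoblast 2. Myotubes 2 and 3, the arrays of slide row 2, stood at 994468 and 1019714. The part of slide row in this was not tested. Fewer probes were also needed to make up 50% of an array's signal in myoblasts, 24, 22 and 21, than in myotubes, 26, 35 and 34.

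Within the set the loss of share lay in the upper part of the ranking. Probes ranked 11 to 50 held 30.1% ± 1.11 of the signal of a myoblast array and 25.2% ± 0.348 of that of a myotube array (SD, n = 3 each; exact permutation p = 0.1), without overlap between the arrays. Probes ranked 51 to 100 held 6.47% ± 0.222 and 6.62% ± 0.153, with overlapping arrays (exact permutation p = 0.4). The 10 brightest held 34.6% ± 0.616 and 31.5% ± 2.92 (exact permutation p = 0.3), and here myotube 1, at 34.8%, lay inside the myoblast range. Of the 100 probes, 66 had a lower mean share in myotubes and 34 a higher one, with losses that summed to -11.4 and gains to 3.50 percentage points. The greatest single loss, -1.12 points, was that of ASCRP4002285, ranked 37, and the next, -0.94 and -0.79 points, were those of the brightest probes ASCRP4004008 and ASCRP4006342. ASCRP4007153 and ASCRP4010888 gained most, 0.597 and 0.556 points.

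Tested one by one, 53 of the 100 probes differed between the states, 44 lower and 9 higher in myotubes (limma, adjusted p under 0.05 over all 9348 circRNA probes tested). Over all tested probes 34.1% were called, 15.1% lower and 19.0% higher. Groups did not overlap for 73 of the 100, against 50.1% of all tested. This excess depended on the scale, since without scaling groups did not overlap for 37 of the 100, against 52.1% of all tested. The median log2 difference of the 100 was -0.58, beside 0.0079 over all tested probes. The next 100 probes by brightness had 37 calls, 23 lower and 14 higher, and a median of -0.28. The lower calls depended on the scale. The percentile itself was 0.53 log2 units higher in myotubes, and without scaling 18 of the 100 were called, 5 lower and 13 higher, where 40.7% of all tested probes were called, 3.89% lower and 36.8% higher. Without scaling the median of the 100 was -0.045 and that of all tested probes 0.54. Median scaling gave 58 calls, 51 lower and 7 higher, with 34.8% of all tested probes called, 18.6% lower and 16.2% higher. The number called was 32 without myoblast 3, 31 without myotube 2 and 27 without myotube 3, where 25.6%, 24.4% and 22.1% of all tested probes were called. With slide row as a block it was 17, against 17.4% of all tested probes.

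Without scaling, the shift between the states was smallest among the brightest probes. The median unscaled log2 difference was -0.059 for ranks 1 to 10, -0.11 for ranks 11 to 50 and 0.12 for ranks 51 to 100. It was 0.26 for the next 100 probes by brightness, 0.40 for the 800 after those and 0.43 for the following 2000. At the median, the brightest probes thus had nearly the same signal in both states, and beyond rank 50 each dimmer band had a greater excess of signal on the myotube arrays. Quantile normalization, which makes the distributions of the arrays alike, gave 23 calls among the 100, 10 lower and 13 higher, with 32.3% of all tested probes called, 15.3% lower and 17.0% higher. Groups then did not overlap for 41 of the 100, against 48.9% of all tested probes.

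A small number of the bright probes changed whichever way the arrays were scaled. Under the 75th percentile, the median, quantile normalization and no scaling alike, 5 of the 100 were called lower and 7 higher. The share of all tested probes called under all of these is not given here, so the counts are not compared with the whole array. The fall of ASCRP4002285 stood out in size. Its signal read 26200, 29400 and 30800 in myoblasts and 3480, 4390 and 4230 in myotubes. The groups were far apart, with the dimmest myoblast array well above the brightest myotube array. The unscaled signal was 7.16-fold lower in myotubes, and relative to the percentile it was 10.4-fold lower (log2 difference -3.37, SE 0.18, limma adjusted p = 1.04e-05). Its part of the circRNA signal was 1.28% ± 0.107 in myoblasts and 0.164% ± 0.0074 in myotubes (SD over 3 arrays each).

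The other 4 of these falls were smaller. ASCRP4000662 read 12500, 11400 and 9060 in myoblasts and 2130, 3880 and 3550 in myotubes (log2 difference -2.35, SE 0.18, limma adjusted p = 5.52e-05). ASCRP4000209 read 9920, 8760 and 7260 in myoblasts and 1710, 2920 and 2600 in myotubes (log2 difference -2.40, SE 0.17, limma adjusted p = 4.65e-05). For both, every myotube array lay at under 50% of the dimmest myoblast array, and among the myotube arrays myotube 1 was the lowest. ASCRP4012777 fell from 8540, 8910 and 7900 to 3150, 4820 and 4330 (log2 difference -1.60, limma adjusted p = 1.88e-04), and ASCRP4009917 from 2810, 3560 and 3140 to 1340, 2210 and 2050 (log2 difference -1.33, limma adjusted p = 6.71e-04). The sixth probe by size, ASCRP4013892, fell by 1.14 on the log2 scale (limma adjusted p = 0.00121). It lost its call without scaling (log2 difference -0.61, limma adjusted p = 0.0535) and kept it in the other 19 alternatives.

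The greatest rise of the scaled level was that of ASCRP4009692, which read 1480, 1750 and 1520 in myoblasts and 4940, 5790 and 7190 in myotubes. The unscaled signal was 3.74-fold higher and the scaled one 2.58-fold higher (log2 difference 1.37, SE 0.16, limma adjusted p = 5.41e-04). ASCRP4007153, a brighter probe, read 7120, 9470 and 5300 in myoblasts and 15600, 23200 and 30100 in myotubes (log2 difference 1.11, SE 0.20, limma adjusted p = 0.0044). Its arrays varied widely inside each state, yet the lowest myotube array was above the highest myoblast array. ASCRP4014131 was steadier on the scaled level, with an SD of 0.078 log2 units in myoblasts and 0.076 in myotubes. It read 8410, 10200 and 7960 in myoblasts and 17300, 22800 and 26100 in myotubes (log2 difference 0.77, SE 0.15, limma adjusted p = 0.00629).

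The other named rises lay in the lower part of the set. ASCRP4012354 read 1230, 1320 and 1400 in myoblasts and 3370, 4590 and 3900 in myotubes (log2 difference 1.04, limma adjusted p = 0.00353). ASCRP4010655 read 1200, 1470 and 1710 and then 3330, 4160 and 5690 (log2 difference 1.04, limma adjusted p = 0.00757). ASCRP4000969 read 1290, 1180 and 1190 and then 3080, 3400 and 3550 (log2 difference 0.92, limma adjusted p = 0.00582). In each of these the myotube arrays lay clear of the myoblast arrays. ASCRP4008132, named because it completes the 7 rises called under all 4 scalings, had a log2 difference of 0.76 (SE 0.22, limma adjusted p = 0.0281), with 9640 on myotube 3 against 5800 and 5650 on the other myotube arrays. Across all 20 alternatives, which include each array left out, 5 falls and 3 rises stayed called in their direction. The share of all tested probes that did so is not given here. The falls were those of ASCRP4002285, ASCRP4000209, ASCRP4000662, ASCRP4012777 and ASCRP4009917, and the rises those of ASCRP4009692, ASCRP4012354 and ASCRP4000969.

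The 10 brightest probes showed no such changes in unscaled signal. All 10 lay between 0.850-fold and 1.19-fold in myotubes over myoblasts, and limma called 0 of them without scaling, with 0 at an unadjusted p under 0.05. Of all 9348 tested probes, 40.7% were called without scaling, and 4729 had an unadjusted limma p under 0.05. Relative to the percentile limma called 5 of the 10 lower, with 8 at an unadjusted p under 0.05. On that scale 34.1% of all tested probes were called, 15.1% lower, and 4342 had an unadjusted limma p under 0.05. The brightest of all, ASCRP4004008, read 141000, 168000 and 157000 in myoblasts and 150000, 139000 and 147000 in myotubes. The arrays of the states overlapped in signal. Its scaled difference of -0.63 (SE 0.21, limma adjusted p = 0.0487) was called in 5 of 20 alternatives and turned to 0.11 in the deposited values. The next, ASCRP4006342, read 124000, 150000 and 137000 in myoblasts and 119000, 132000 and 138000 in myotubes, again with overlap, and had a scaled difference of -0.61 (limma adjusted p = 0.0303), called in 9 of 20 alternatives.

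ASCRP4006710, the third, read 88200, 108000 and 102000 in myoblasts and 102000, 102000 and 108000 in myotubes. Its scaled difference of -0.46 was not called (limma adjusted p = 0.104). ASCRP4013042, ASCRP4007626, ASCRP4011502 and ASCRP4012979 were likewise not called, with scaled differences of -0.53, -0.34, -0.28 and -0.67. ASCRP4004672, ASCRP4005609 and ASCRP4006712 were called lower, with -0.58, -0.64 and -0.77 (limma adjusted p = 0.0419, 0.0156 and 0.0213). Their unscaled folds were 0.969, 0.926 and 0.850, and without scaling they were not called (limma adjusted p = 0.877, 0.693 and 0.374). Of all 44 lower calls, 39 were not called without scaling and 1 had the opposite sign there.

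Below the 10 brightest the probes diverged more. Signals of ranks 11 to 50 ran from 2130 to 41300, and limma called 28 of these 40 probes, 25 lower and 3 higher. Their unscaled folds of myotubes over myoblasts ran from 0.140 to 3.13 with a median of 0.907, and 3 probes were at least 2-fold higher and 3 at least 2-fold lower. Signals of ranks 51 to 100 ran from 1090 to 9920, with 20 of these 50 called, 14 lower and 6 higher. Their unscaled folds ran from 0.274 to 3.74 with a median of 1.11, with 6 probes at least 2-fold higher and 1 at least 2-fold lower. The calls in both bands are relative to the percentile, where 34.1% of all tested probes were called, 15.1% lower and 19.0% higher. The 40% called at ranks 51 to 100 lay near that share.

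Ranks changed little at the top and more towards the edge of the set. Of the 100 probes, 86 were in the highest 100 of both states, 5 of the myoblast state alone and 9 of the myotube state alone. The first 5 ranks were held by the same probes in the same order in both states, and 9 probes were in both lists of the highest 10. The median change of rank was 0 for ranks 1 to 10, 3 for ranks 11 to 50 and 14.5 for ranks 51 to 100. In all, 49 probes moved by at most 5 ranks, and 21 by more than 20, 12 of them up and 9 down.

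The greatest climbs were those of ASCRP4000969 from rank 137 in myoblasts to 66 in myotubes, ASCRP4012354 from 132 to 61 and ASCRP4010655 from 119 to 55. The greatest drops were those of ASCRP4000209 from 41 to 98, ASCRP4009917 from 66 to 119 and ASCRP4002285 from 18 to 59. Higher in the list, ASCRP4010888 went from 32 to 11, with signals of 16600, 14900 and 11900 in myoblasts and 23000, 32200 and 34300 in myotubes. It was called higher (log2 difference 0.50, limma adjusted p = 0.0455) but kept that call in only 10 of 20 alternatives, and under median scaling it had a difference of 0.42 (limma adjusted p = 0.0840). It was named after its values were seen. On single arrays, 90 to 92 of the 100 probes were in that array's own highest 100, and 77 were so on all 6. The lowest rank that any of them took on a single array was 150, on myotube 1.

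The replicate arrays agreed closely for most of these probes. The median SD of the scaled log2 level within a state was 0.19, against 0.24 over all tested probes and 0.20 for the next 100 probes by brightness. An SD over 0.3 was found for 18 of the 100, against 35.0% of all tested probes. Across the 100 probes, which share arrays and are not independent, correlations of log2 level were at least 0.977 among myoblast arrays and 0.982 among myotube arrays, and 0.893 to 0.927 between states.

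A few bright probes varied widely between replicates. ASCRP4012684 read 3860, 12300 and 6320 in myoblasts and 13600, 11100 and 14700 in myotubes. Its SD was 0.77 log2 units in myoblasts and its difference of 0.43 was not called (limma adjusted p = 0.400). ASCRP4006395 read 4490 on myoblast 1 and 2070 and 2020 on the other myoblast arrays, and 2310 to 2680 on the myotube arrays. Its difference of -0.65, beside a pooled SD of 0.50, was not called (limma adjusted p = 0.146). ASCRP4006129 read 1270, 2640 and 1710 in myoblasts and 2830, 2000 and 2540 in myotubes. At the other end, ASCRP4011947, ASCRP4008946 and ASCRP4011499 had pooled SDs of 0.061, 0.062 and 0.065. ASCRP4008946, with 1 spot left out for an outlier flag, was called lower (log2 difference -0.92, limma adjusted p = 0.0073) and kept its call in 15 of the 18 alternatives that could be fitted; the other pair was not called.

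Among the myotube arrays the scaled levels of the bright probes shared 1 pattern. Myotube 1 had the highest scaled level for 67 of the 96 probes without a flagged myotube spot (69.8%), against 44.7% of all tested probes. In unscaled signal myotube 1 was instead the lowest myotube array for 75 of the 96 (78.1%), against 83.1% of all tested probes. Its percentile was 37.6, where myotubes 2 and 3 had 53.3 and 55.0. Slide row divides the same arrays, and its part in this pattern cannot be told apart from that of the culture.

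The 100 probes were spread over the array surface, with 21 in its upper left part, 28 in the upper right, 26 in the lower left and 25 in the lower right. Their identifiers were less evenly spaced in 1 place. A window of 100 consecutive identifiers held 7 of the 100, namely ASCRP4006710, ASCRP4006712, ASCRP4006650, ASCRP4006652, ASCRP4006634, ASCRP4006649 and ASCRP4006666, at ranks 3, 10, 11, 18, 22, 24 and 25. The greatest number in any such window among the next 100 probes by brightness was 4. The window was chosen after the values were seen, and the sources used here do not say what the order of identifiers follows. Unscaled folds of the 7 lay between 0.786 and 1.05, and limma called 4 of them lower relative to the percentile. On that scale 44 of the 100 and 15.1% of all tested probes were called lower. The 4 calls therefore do not set the window apart from the rest of the set.

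The authors' deposited values held all 100 probes, and 97 of these were also among the highest 100 there. The deposited columns share 1 maximum and closely similar distributions. The share of the 100 on that scale was 58.9% in myoblasts and 58.4% in myotubes, a difference of -0.57 points against -7.88 in the scanner signals. A step that makes the distributions of the arrays alike would take out most of such a difference by its construction. The sources used here do not say whether the authors ran such a step, and the cause of the gap was not tested.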

How the data were processed

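Total RNA of 3 myoblast and 3 myotube cultures was labelled with Cy3, per the labels, and hybridised to 1 array each. Per the file headers, the deposited scanner intensities came from Feature Extraction 11.0.1.1, with background subtraction and detrending within each array and no scaling between arrays. The deposited value table holds log2 values made by the authors by steps that the sources used here do not give. No sequence or genome position of a probe was used here.

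Members were the 100 circRNA probes of the highest mean level, with no spot left out. For the tests, spots with a feature outlier flag were left out (6 spots of the 100 probes). Levels were log2 processed signal minus the array's 75th percentile over the 14236 circRNA probes. The 9348 probes well above background on all arrays of a state were fitted with lmFit and eBayes (limma 3.58.1, R 4.3.3). Tests were 2-sided, and p-values were adjusted by Benjamini-Hochberg over all of these probes, with a threshold of 0.05. The fitting code was checked on simulated data. Shares were sums of linear signal, compared by an exact permutation test of group means. Number of arrays, not counting error, limits the precision.

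Probes named singly were the 10 brightest, the 6 greatest rises and falls among called probes whose groups did not overlap, the 3 greatest rank changes each way, the 3 highest and lowest SDs, and 3 probes on each side of the edge. The members, rules and lists were chosen with earlier results of these data known. Replicate numbers are shared by the states. Same-numbered arrays showed no shared deviation over the tested probes, which cannot decide whether the cultures were paired. The main fit has no block, and a fit with a replicate block is given among the alternatives. The host gene lists set out in the plan were not used, since no given table pairs these probes with genes. Alternatives covered scaling, background correction, filters, variance models, slide row, single arrays and the number of probes.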

Additional observations from a re-analysis of the deposited data

Results flagged for a closer look

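Probes outside the circRNA set also reached this brightness. The control probe AS_circRNA_control3000005, which has 10 spots on each array, would stand at rank 63 among the circRNA probes. Its signals were 2296, 2779 and 2347 in myoblasts and 3763, 5856 and 5371 in myotubes. The custom probe CUST_11_PI419532418, also with 10 spots, would stand at rank 84, with 2472, 2376 and 2260 in myoblasts and 2492, 2368 and 2650 in myotubes. The sources used here do not give their targets. Of the other 13 control, 14 custom and 50 gene probes, and of the 15 negative probes, 0 reached the level of the 100th circRNA probe.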

How the results depend on the processing

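The share difference of -7.88 points kept its direction in all 15 alternatives, between -9.44 and -0.57 points, the latter in the deposited values, and between -9.44 and -6.83 with single arrays left out. The number of called probes, 53 (44 lower, 9 higher) where 34.1% of all tested probes were called, also moved. It was 23 (10 lower) after quantile normalization (32.3% of all tested), 18 (5 lower) without scaling (40.7%), 29 (16 lower) in the deposited values (32.7%), and 35 (29 lower) with no filter on dim probes (18.1%). With slide row as a block it was 17 (13 lower, 4 higher) against 17.4% of all tested, and within row 1, where myotube 1 alone stands for its state and its spread is taken from the myoblast arrays, 11 (8 lower, 3 higher) against 11.9%. Normexp correction, run on median signals, gave 58 calls, 18 of them higher, against 30.1%. With single arrays left out the number ran from 27 to 60, with 21 to 53 lower and 6 to 7 higher. The share of all tested probes called then ran from 22.1% without myotube 3 to 33.0% without myotube 1. The 50 brightest gave 33 calls, 3 of them higher, and the 200 brightest 90, with 67 lower and 23 higher. Of these sets 45 and 164 probes lay in the highest 50 and 200 of both states. The median log2 difference of -0.58 was -0.031 after quantile normalization, -0.045 without scaling, -0.26 after normexp, -0.091 in the deposited values and -0.31 in both slide row fits, and -0.64 to -0.50 with single arrays left out. Between 84 and 87 probes stayed in both lists and the median SD ran from 0.15 to 0.22 with single arrays left out, the lowest without myotube 1. 

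Among the 28 probes named by the rule, signs turned for 8, none of them called after the change. Over all 100, 18 were higher with the 75th percentile scaling and 46 without scaling. Without scaling the log2 differences were 0.071 for ASCRP4006710, 0.0031 for ASCRP4013042, 0.19 for ASCRP4007626, 0.25 for ASCRP4011502, 0.23 for ASCRP4011947 and 0.44 for ASCRP4006129. In the deposited values they were 0.11 for ASCRP4004008, 0.30 for ASCRP4011502 and 0.16 for ASCRP4012979. Quantile normalization gave 0.052 for ASCRP4006710, 0.23 for ASCRP4011502 and 0.19 for ASCRP4006129, and normexp 0.17 for ASCRP4011502 and 0.055 for ASCRP4006129. ASCRP4006129 was also at 0.48 in both slide row fits, and between -0.38 and 0.13 with single arrays left out, above 0 without myoblast 2 or myotube 2. The cause was not tested.

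With the replicate block 42 of the 100 probes and 30.3% of all tested were called. Correlations of same-numbered arrays were -0.019, 0.018 and -0.088 over tested probes, and -0.34, -0.33 and -0.0088 over the 100 probes. With 3 arrays in each state such correlations cannot decide whether the cultures were paired by number. The files hold no mean signal, so normexp used the median signal. The normexp offset of 50, the slide row and the flagged-spot settings were set with earlier results known.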

Other observations

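The neighbours by identifier ASCRP4000662 and ASCRP4000664 had differences of nearly the same size. ASCRP4000664, ranked 114 and so outside the set, read 3280, 3160 and 2540 in myoblasts and 646, 1020 and 958 in myotubes (log2 difference -2.32, SE 0.16, limma adjusted p = 3.39e-05), beside -2.35 for ASCRP4000662. It went from rank 68 to 240. This pair was picked after its values were seen. The 14 probes that were in the highest 100 of 1 state without belonging to the set were 9 of the myoblast state and 5 of the myotube state. The one farthest up in myotubes, ASCRP4014146, climbed from rank 222 to 80 with a log2 difference of 1.44.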
